A study of Mus musculus with 12 samples.

Results

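The insulin-like growth factor 1 (IGF-1) system was described in cultured mouse osteoclasts through 8 genes, taken by name from the 47643 genes of the count table, of which 13681 passed the filter on low counts and were tested. They comprise the ligand Igf1, the receptors Igf1r, Insr and Igf2r, the receptor substrates Irs1 and Irs2, and the binding proteins Igfbp4 and Igfbp7. All 8 were found in the table, and 7 of them passed the filter, Irs1 being the exception. The members were chosen on results of these data that were already known, so their changes are given as a description, with standard errors (SE) and no p-value.

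Bulk RNA-seq. was performed on 12 libraries in 3 groups of 4. Monocytes from the bone marrow (BMMs) of femur and tibia of BALB/c WT mice were the source of all cultures, which were differentiated with M-CSF and RANKL until day 3, and neither age nor sex of these mice is given in the sources used here. OCsCtr cultures were untreated, OCsEo cultures received sorted eosinophils at 2 eosinophils per BMM, and OCsEoS cultures received eosinophil supernatant at a 1:2 dilution, each from day 0 for 48 h. The eosinophils were from IL-5tg/4get mice, a hyper-eosinophilic strain, and the stimuli were washed away at 48 h, before RNA was harvested. The comparisons ask how osteoclasts change after contact with eosinophils or with what eosinophils secrete.

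IGF-1 is a secreted growth factor that acts on the tyrosine kinase receptor encoded by Igf1r, and, more weakly, on the insulin receptor encoded by Insr. Both receptors signal through insulin receptor substrates to the PI3K-AKT-mTORC1 and RAS-MAPK arms and thereby hold FOXO transcription factors out of the nucleus. The product of Igf2r, the cation-independent mannose 6-phosphate receptor, does not signal in this way but carries lysosomal enzymes and clears IGF-2. Binding proteins hold IGFs in the extracellular space. IGF-1 is abundant in bone, where it acts on osteoblasts as well as on osteoclasts, and macrophages are a known source of it.

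The library totals ranged from 27837530 to 40327869 counts, so that 3 counts, taken as the floor, were worth 0.0769 to 0.107 counts per 1000000 (CPM). Osteoclast markers fixed as a list (11 genes, among them Acp5, Ctsk and Mmp9) had counts in every group, with summed levels of 28476 to 34614 CPM in OCsCtr, 18206 to 23314 CPM in OCsEo and 15037 to 22277 CPM in OCsEoS. A macrophage list of 6 genes summed to 2132 to 2425, 1867 to 2198 and 1631 to 2019 CPM in the same order. Its genes did not move together, since Csf1r had means of 1238, 909 and 835 CPM in the 3 groups, whereas Adgre1 had 248, 342 and 366 CPM and Mrc1 11.6, 15.4 and 20.3 CPM. In bulk RNA, fewer cells of a type and less RNA per cell cannot be told apart, and the part of such differences in the results below was not tested.

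Of the members, Igf1 and Igfbp4 are the genes on which the results turn, and what lies before their start sites is shown first. Igfbp4 (ENSMUSG00000017493) lies on chromosome 11 from 99041244 to 99054392 on the plus strand of GRCm38. The 250 bases before its RefSeq start (GRCm38.p6, chr11:99040994-99041243, plus strand) had a GC content of 69.2%, held 22 CpG dinucleotides and carried the letters TATAAA, in capitals below, from position -28 before the start.

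Igfbp4 promoter: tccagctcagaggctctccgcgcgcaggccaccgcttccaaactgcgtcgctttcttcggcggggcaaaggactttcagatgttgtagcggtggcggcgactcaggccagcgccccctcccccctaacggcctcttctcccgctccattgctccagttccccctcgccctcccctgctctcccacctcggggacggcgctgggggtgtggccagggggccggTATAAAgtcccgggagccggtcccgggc

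Igf1 (ENSMUSG00000020053) lies on chromosome 10 from 87858265 to 87937042 on the plus strand. Its RefSeq start was 2846 bases inside the GENCODE gene, so that all 250 bases before it fell in annotated exons of longer transcripts, and only the 30 bases around the single motif match found there are shown. This match, in capitals below, was to the AP-1 letters TGANTCA from position -37.

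Igf1, chr10:87861062-87861091, plus strand: ggagctggaactTGAATCActattctggat

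Both strands were searched for 7 motifs in the 7 members that have a RefSeq promoter entry. Besides AP-1 and TATAAA, the letters were TGTTTAC (FOXO), TTCNNNGAA (STAT5), GAGGAAGT (PU.1) and TGACGTCA (CRE), together with the STAT6 motif, which differs from that of STAT5 by 1 more N in the spacer. TATAAA stood in 12.4% of all 32851 mouse promoters of this length and the AP-1 letters in 6.75%, and the other 5 motifs in 1.55% to 7.02%. No other match was found in the members, which says only that these letters are not in these windows. In base composition Igf1 stood apart from the other members. Its window had a GC content of 52.8%, near the median of 52.4% over all promoters, with 5 CpG dinucleotides, whereas the other 6 windows had 69.2% to 77.6% and 22 to 42 CpG dinucleotides.

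Igf1, the ligand, was the member with the largest change. In OCsCtr its level was 13.7, 11.2, 15.3 and 15.6 CPM in replicates 1 to 4. In OCsEo the 4 libraries had 62.3, 41.7, 45.4 and 53.5 CPM, and in OCsEoS 79.2, 48.4, 52.7 and 57.3 CPM. All 8 stimulated libraries thus lay above all untreated ones, and the lowest of them held 41.7 CPM against a highest untreated level of 15.6 CPM. The means were 13.96 ± 2.03, 50.7 ± 9.17 and 59.4 ± 13.7 CPM (SD, n = 4 each). On the log2 scale Igf1 was higher by 1.86 (SE 0.15) in OCsEo and by 2.09 (SE 0.15) in OCsEoS, which are folds of 3.63 and 4.25 and the 68th and 38th largest rises among all genes tested. OCsEoS and OCsEo overlapped, with a difference of 0.23 (SE 0.14) on the log2 scale.

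Igf1 and Igfbp4 met the criteria for a call, which were a log2 fold change beyond 0.5 in either direction and an adjusted p in edgeR of less than 0.05, in both comparisons with OCsCtr. Of the 7 tested members, 2 were therefore called higher in OCsEo, where 3.27% of all tested genes were called higher, and 2 in OCsEoS, where the share was 3.63%. No member was called lower in either comparison, beside 2.61% of all genes in OCsEo and 4.11% in OCsEoS. At an unadjusted p under 0.05, the edgeR test counted 3 members in OCsEo and 4 in OCsEoS, in either direction, beside 29.7% and 34.3% of all tested genes, and DESeq2 gave every member the same call. Since the members were chosen on known results, nothing is read from these shares.

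**Figure D1:**
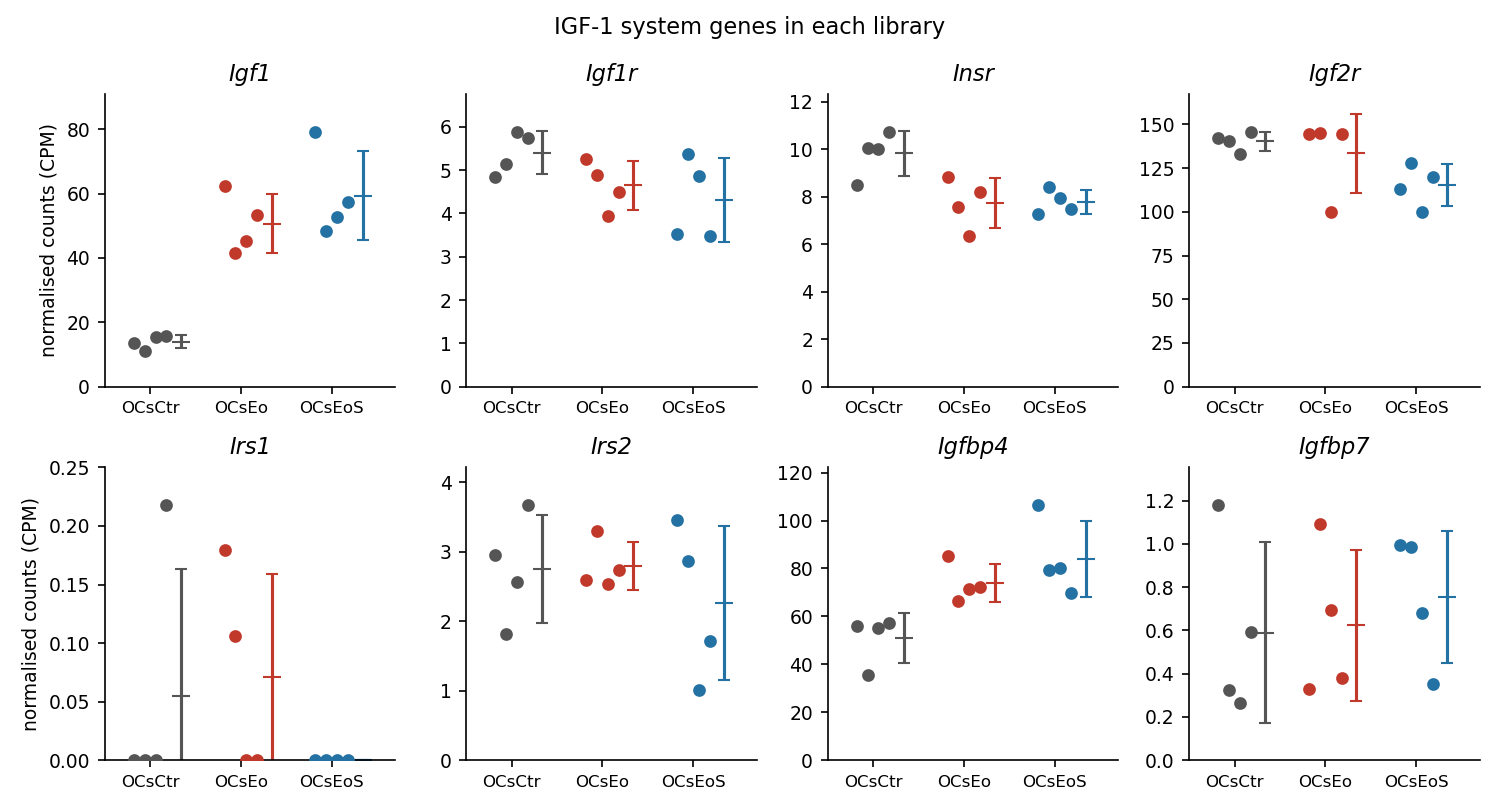
Level of the 8 IGF-1 system genes in each library, in CPM on axes that start at 0. Points are libraries (replicates 1 to 4 from left to right), with the mean and SD beside them (n = 4). The stimulated libraries lie above all OCsCtr libraries for Igf1 and Igfbp4, and the groups overlap for Igf1r, Irs2 and Igfbp7.

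Igfbp4 encodes a binding protein that holds IGFs away from their receptor until it is cleaved. Its level was 56.1, 35.5, 55.1 and 57.4 CPM in OCsCtr, 85.1, 66.4, 71.4 and 72.4 CPM in OCsEo, and 106.4, 79.4, 79.99 and 69.7 CPM in OCsEoS. No stimulated library fell within the untreated range, although the gap between 57.4 and 66.4 CPM was narrow compared with that of Igf1. The log2 fold changes were 0.53 (SE 0.14) in OCsEo and 0.72 (SE 0.14) in OCsEoS, with 0.18 (SE 0.13) between the stimuli. The value in OCsEo lay close to the criterion of 0.5. It was 0.40 without OCsCtr replicate 2, the lowest untreated library, and 0.46 without OCsEo replicate 1, the highest library of its group, and the call was lost in both cases. In OCsEoS, Igfbp4 stayed called without any 1 library (0.58 to 0.80).

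The libraries in which Igf1 was lowest and highest were often those of Igfbp4. In OCsCtr both genes were lowest in replicate 2 and highest in replicate 4. In OCsEo both followed the order of replicates 2, 3, 4 and 1 from low to high. In OCsEoS both were highest in replicate 1, but Igf1 was lowest in replicate 2 and Igfbp4 in replicate 4. Per gene length, Igf1 amounted to 0.124 ± 0.0131 of Igfbp4 in OCsCtr, 0.305 ± 0.0266 in OCsEo and 0.316 ± 0.0418 in OCsEoS (SD, n = 4, ratio of RPKM). The range of this ratio in OCsCtr, 0.109 to 0.141, did not reach that of either stimulated group, which began at 0.272.

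The signalling receptors Igf1r and Insr had low levels in every group, and neither was called. Igf1r measured 4.85, 5.13, 5.89 and 5.75 CPM in OCsCtr, 5.26, 4.89, 3.95 and 4.50 CPM in OCsEo, and 3.52, 5.38, 4.87 and 3.47 CPM in OCsEoS. The groups overlapped, with log2 fold changes of -0.22 (SE 0.19) in OCsEo and -0.33 (SE 0.20) in OCsEoS. Insr measured 8.49, 10.1, 10.01 and 10.7 CPM in OCsCtr, 8.82, 7.55, 6.36 and 8.21 CPM in OCsEo, and 7.26, 8.39, 7.93 and 7.46 CPM in OCsEoS. Every OCsEoS library was below every OCsCtr library for Insr, whereas OCsEo replicate 1 was within the untreated range. The log2 fold changes of Insr were alike in size, -0.35 (SE 0.14) and -0.34 (SE 0.14), and too small for a call. Under settings other than leaving out a library, these falls were as small as -0.04 in OCsEo and -0.10 in OCsEoS for Igf1r. For Insr they were as small as -0.19 and -0.14. The proportion of the 2 receptors overlapped between the groups, with 2.22 ± 0.142 Insr per Igf1r in OCsCtr, 2.03 ± 0.146 in OCsEo and 2.26 ± 0.366 in OCsEoS (SD, n = 4, ratio of RPKM).

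The proportion of ligand to receptor transcripts was higher after both stimuli. Igf1 amounted to 4.37 ± 0.477 times Igf1r in OCsCtr, 18.5 ± 2.74 times in OCsEo and 24.9 ± 10.3 times in OCsEoS (SD, n = 4, ratio of RPKM). The highest untreated ratio was 4.78 and the lowest stimulated one 14.4, so that the groups did not overlap with OCsCtr. As Igf1r was not called, this ratio mostly restates the rise of Igf1, which was chosen on known results.

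Igf2r, the mannose 6-phosphate receptor, was far more abundant than the signalling receptors. Its level was 142.1, 140.2, 133.1 and 145.8 CPM in OCsCtr and 113.2, 128.04, 100.1 and 119.8 CPM in OCsEoS. All OCsEoS libraries were lower than all OCsCtr libraries. The log2 fold change of -0.28 (SE 0.10) was too small for a call. In OCsEo, 3 libraries lay at 144.6 to 145.3 CPM, within the untreated range, and replicate 3 at 99.6 CPM, giving a log2 fold change of -0.07 (SE 0.10). Without OCsEo replicate 3 the latter was 0.04.

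**Figure D2:**
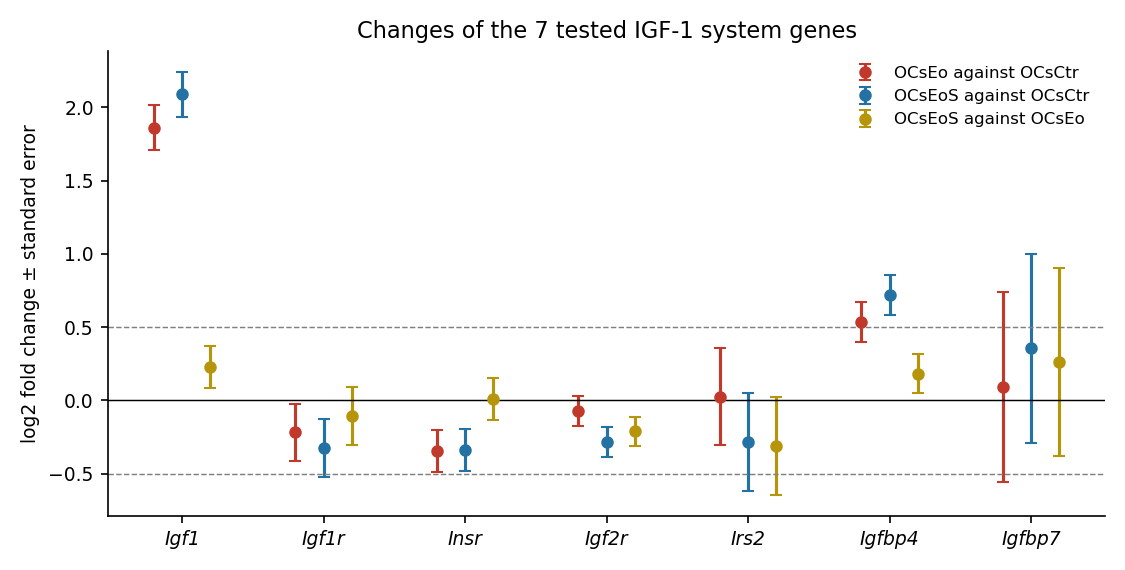
Log2 fold change of the 7 tested members with its standard error, from edgeR's fit of all 12 libraries, in the 3 comparisons. Dashed lines mark the criterion of 0.5 in either direction. Igf1 lies at 1.86 and 2.09 against OCsCtr, Igfbp4 at 0.53 and 0.72, and no other member lies beyond the lines.

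Of the receptor substrates, which link the activated receptors to PI3K, Irs2 carried nearly all counts. Irs2 measured 2.95, 1.81, 2.56 and 3.67 CPM in OCsCtr, 2.60, 3.30, 2.54 and 2.74 CPM in OCsEo, and 3.45, 2.87, 1.01 and 1.72 CPM in OCsEoS. The groups overlapped, and the log2 fold changes were 0.03 (SE 0.33) and -0.28 (SE 0.33). Irs1 had 7 counts in OCsCtr replicate 4, 6 and 4 counts in OCsEo replicates 1 and 2, and 0 counts in the other 9 libraries. With 7, 10 and 0 counts in all in OCsCtr, OCsEo and OCsEoS, no fold is given. Exons of Irs1 share 2822 bases (30.9% of its exon length) with Gm9747 on the opposite strand, which had 0 counts. Those of Irs2 share 162 bases (2.56%) with 9530052E02Rik, which had 3 counts in all.

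Igfbp7, a secreted protein of the extracellular matrix with weak affinity for IGFs, had 9 to 41 counts per library. Its level was 1.18, 0.326, 0.265 and 0.591 CPM in OCsCtr, 0.329, 1.09, 0.692 and 0.381 CPM in OCsEo, and 0.997, 0.984, 0.683 and 0.350 CPM in OCsEoS. Single libraries of 1 group differed more than the groups did, and the log2 fold changes of 0.09 and 0.36 had an SE of 0.65. Differences of this size were not detectable at this depth. Igfbp7 also shares 85 exon bases (7.03%) with Polr2b on the opposite strand, a gene with 26096 counts against its own 260, and the library kit does not mark strand, so that reads of the 2 genes cannot be told apart there. The libraries in which Igfbp7 was highest in OCsCtr and OCsEo were those with the most stromal or osteoblast markers. A list of 12 such genes, led by Col1a1 and Col1a2, summed to 70.9 CPM in OCsCtr replicate 1 and 48.2 CPM in OCsEo replicate 2, compared with 15.1 to 38.4 CPM in the other 6 libraries of these groups. In OCsEoS the list ranged from 13.6 to 45.2 CPM and was highest in replicate 3, in which Igfbp7 was not the highest. Of these markers, 11 of 12 had counts in each group, with Bglap at 0 in OCsCtr and OCsEoS and Lepr at 0 in OCsEo, and their part in the Igfbp7 values was not tested.

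Set on a scale per gene length, with the gene length deposited in the table, the members spanned a wide range of levels. In OCsCtr the mean levels were 14.9 ± 0.563 RPKM for Igf2r, 11.6 ± 2.35 RPKM for Igfbp4 and 1.41 ± 0.205 RPKM for Igf1 (SD, n = 4). Insr followed with 0.715 ± 0.0687 RPKM, Igfbp7 with 0.488 ± 0.345, Irs2 with 0.434 ± 0.123, Igf1r with 0.322 ± 0.0294 and Irs1 with 0.00595 RPKM. Igfbp7 was not told apart from its neighbours Insr and Irs2 in this order, since their ranges overlapped, and neither was Irs2 from Igf1r. The order of Igf2r and Igfbp4 changed between the groups. Igf2r was above Igfbp4 in OCsCtr (14.1 to 15.4 against 8.04 to 13.0 RPKM), overlapped with it in OCsEo (10.6 to 15.4 against 15.03 to 19.3 RPKM) and was below it in OCsEoS (10.6 to 13.6 against 15.8 to 24.1 RPKM). Igf1 kept its place below these genes, with 5.12 ± 0.925 RPKM in OCsEo and 6.00 ± 1.38 RPKM in OCsEoS. Over all 12 libraries, its mean level exceeded that of 51.6% of the tested genes, while that of Igf1r exceeded 12.6%.

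**Figure D3:**
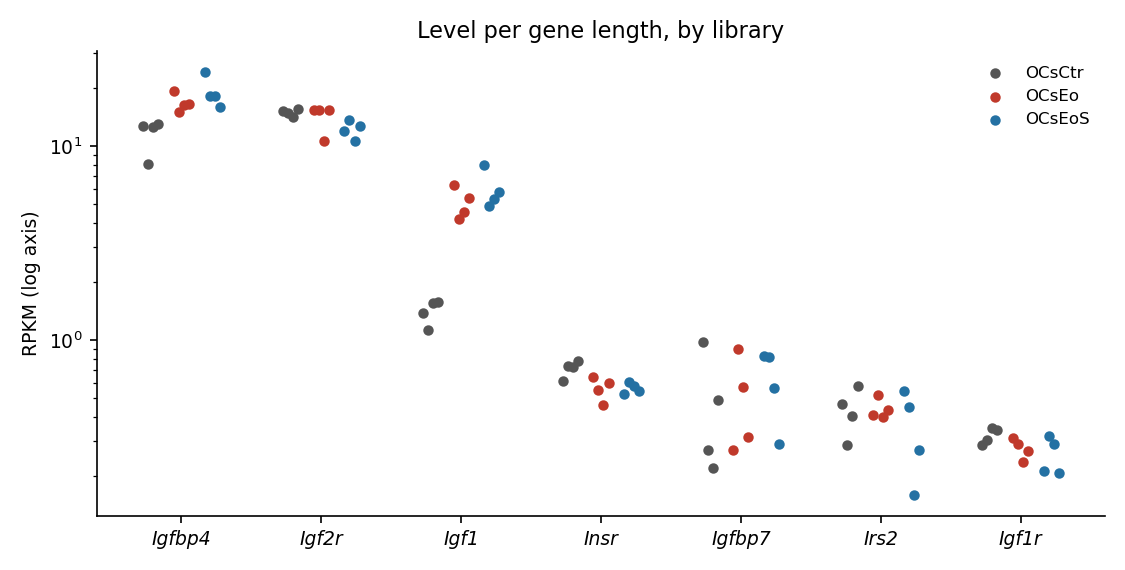
Level per gene length (RPKM, log axis) of the 7 tested members in each library, ordered by their mean over all libraries. Igfbp4 and Igf2r lie at about the same height, Igf1 rises towards them in the stimulated groups, and Insr, Igfbp7, Irs2 and Igf1r all lie under 1 RPKM.

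Direct comparison of the 2 stimuli gave no call among the members by edgeR's quasi-likelihood test, where 0.0731% of all tested genes were called higher and 0.307% lower in OCsEoS than in OCsEo. At an unadjusted p under 0.05, 1 of the 7 tested members was counted, beside 11.1% of all tested genes, and DESeq2 also called none. The log2 differences of OCsEoS from OCsEo ranged from -0.31 for Irs2 to 0.26 for Igfbp7. The comparisons with OCsCtr share the same 4 untreated libraries, so the similar values of Igf1 and Igfbp4 in both are not independent of each other.

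Eosinophils were added to OCsEo cultures and their supernatant to OCsEoS cultures, so eosinophil markers were set beside Igf1. A list of 11 genes summed to 58.3 to 75.02 CPM in OCsCtr, 62.4 to 83.9 CPM in OCsEo and 50.2 to 57.02 CPM in OCsEoS, most of it from Ccr3 in each group. All 11 had counts in OCsCtr and OCsEo and 7 of 11 in OCsEoS, where the granule protein genes Epx, Prg3, Ear1 and Ear6 were at 0. Of the list, Alox15 was higher in OCsEo without overlap, with 6.24 to 16.7 CPM against at most 1.13 CPM in the other groups, and so was Siglecf, with 2.53 to 3.28 CPM against at most 1.30 CPM. The rest of the list was mixed. Ccr3 had a mean of 59.6 CPM in OCsCtr and 48.7 CPM in OCsEo, and Prg2 5.53 and 5.49 CPM. Prg3 and Ear2 also had lower means in OCsEo than in OCsCtr, whereas Epx, Ear1, Ear6, Il5ra and Gata1 had higher means with overlap. The Igf1 level in OCsEoS, 48.4 to 79.2 CPM, overlapped with that in OCsEo. The part of eosinophil RNA in the OCsEo level was not tested. A neutrophil list of 10 genes summed to 333 to 474 CPM in OCsCtr, 483 to 626 CPM in OCsEo and 382 to 437 CPM in OCsEoS. Endothelial markers (7 genes) ranged from 16.9 to 28.1 CPM and T or B cell markers (6 genes) from 4.62 to 15.1 CPM over all libraries.

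The genes with the profile most like that of Igf1 over the 12 libraries were sought among 10625 tested genes whose log2 CPM averaged 1 or more. Likeness was the root mean square distance between log2 CPM values after the mean of each gene was taken off. The nearest was Cd36, a scavenger receptor for lipids and oxidised lipoprotein, at a distance of 0.25, with log2 fold changes of 1.54 in OCsEo and 1.66 in OCsEoS. It was followed by the serpin Serpinb9b (0.33), the glutaminyl cyclase Qpct (0.34), the microsomal glutathione transferase Mgst1 (0.34) and the chemokine Ccl7 (0.42). These 5 genes had log2 fold changes of 1.29 to 2.08 in OCsEo and 1.36 to 2.04 in OCsEoS. They were picked for closeness to Igf1 in these same libraries, so changes like those of Igf1 follow from the choice. Cd36 was the most abundant of them, with a mean of 59.5 CPM in OCsCtr, 173.1 CPM in OCsEo and 187.5 CPM in OCsEoS. Those nearest to Igfbp4 were Slc7a8, an amino acid transporter (0.14), B4galt6, a lactosylceramide synthase (0.15), and Dab2, an endocytic adaptor (0.16). Igfbp7 was nearest to Tm4sf1, Fscn1 and Pdgfrb, at distances of 0.33 to 0.43. Igfbp7 itself, with 9 to 41 counts per library, lay at a root mean square distance of 0.67 from its own mean.

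**Figure D4:**
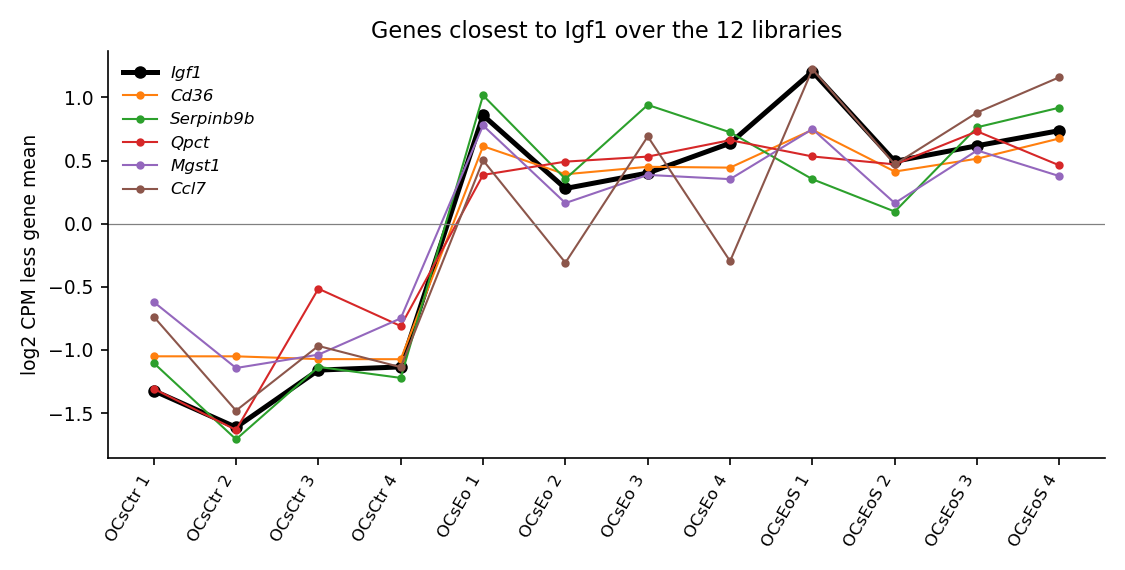
Log2 CPM of Igf1 and of the 5 genes nearest to it, each less its own mean, in the 12 libraries. All 6 genes lie below 0 in the OCsCtr libraries and, apart from Ccl7 in OCsEo replicates 2 and 4, above 0 in the stimulated ones. The 5 genes were picked for closeness to Igf1, so a shared pattern follows from the choice.

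The rest of the pathway was followed in 7 lists of 111 genes, of which 89 were tested and 11 had 0 counts in every library. In OCsEo, 2 of the 89 were called higher and 3 lower, and in OCsEoS 3 were called higher and 5 lower, beside 3.27% higher and 2.61% lower in OCsEo and 3.63% and 4.11% in OCsEoS over all tested genes. These numbers of calls are near those shares. DESeq2 on all 12 libraries called 5 and 8 genes as well, and all 5 and all 8 of the edgeR calls were among them. The median log2 fold change of the 89 was -0.11 in OCsEo and -0.14 in OCsEoS, beside -0.01 over all tested genes in both. Between OCsEoS and OCsEo, 0 of the 89 were called by edgeR or DESeq2, and 9 had an unadjusted p under 0.05, where 11.1% of all tested genes had one.

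Among the other ligands and binding proteins, little was detected. Of 12 genes, 7 had 0 counts in every library, among them Igf2, and only Kazald1 was tested, without a call. Igfbp3 had 15 counts in all, from OCsCtr replicates 1 and 4. Igfbp5 had 17 counts in all, from 1 OCsCtr library and 2 OCsEoS libraries. Of 10 enzymes and inhibitors that process binding proteins or receptor precursors, 5 were tested and none was called by edgeR in OCsEo or OCsEoS. In each, 2 had an unadjusted p under 0.05 in edgeR, beside 29.7% and 34.3% of all tested genes.

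Of the 22 adaptors and negative regulators, 20 were tested. Gab2, a docking protein that binds PI3K, was called lower in both comparisons. Its level was 29.6, 31.9, 30.6 and 32.9 CPM in OCsCtr, 17.6, 22.9, 13.3 and 20.4 CPM in OCsEo, and 17.3, 20.5, 16.7 and 14.6 CPM in OCsEoS, without overlap with OCsCtr. The log2 fold changes were -0.75 (SE 0.14, edgeR adjusted p = 0.000816) and -0.86 (SE 0.14, edgeR adjusted p = 0.000178). Socs1, a suppressor of cytokine and insulin signalling, was called higher in both, by 0.69 (edgeR adjusted p = 0.0429) and 0.71 (edgeR adjusted p = 0.0305). Its level was 2.53 to 3.33 CPM in OCsCtr, 4.26 to 4.84 CPM in OCsEo and 2.88 to 6.36 CPM in OCsEoS, and the call in OCsEo was lost when any of 7 of the 8 libraries compared was left out, at 0.64 to 0.72. In OCsEoS it was lost without OCsCtr replicate 1, 2 or 3 or OCsEoS replicate 4, at 0.52 to 0.70, and at 0.58 after correction for a trend with gene length. The adaptors Dok2 and Sh2b2 were called higher in OCsEoS, by 0.59 and 0.64 (edgeR adjusted p = 1.13e-05 and 0.0114). Dok2 measured 166 to 194 CPM in OCsCtr and 246 to 311 CPM in OCsEoS, and its 242 to 270 CPM in OCsEo also lay above OCsCtr, where the log2 fold change of 0.45 missed the criterion. Grb10, which binds and restrains both receptors, was not called, with log2 fold changes of -0.50 (SE 0.36) and -0.85 (SE 0.37). In OCsEoS it was called lower without OCsEoS replicate 3.

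All 28 genes of the PI3K-AKT-mTORC1 arm were tested. In OCsEo 0 were called higher and 2 lower, beside 3.27% and 2.61% of all tested genes. In OCsEoS 0 were called higher and 3 lower, beside 3.63% and 4.11%. These calls are too few to read a direction of the arm from them. Pik3cb, which encodes a catalytic subunit of PI3K, had 156 to 177 CPM in OCsCtr, 113 to 121 CPM in OCsEo and 107 to 122 CPM in OCsEoS. Its log2 fold changes were -0.52 (SE 0.06, edgeR adjusted p = 1.12e-05) and -0.59 (SE 0.06, edgeR adjusted p = 4.27e-06), and after correction for a trend with gene length they were -0.45 and -0.50, short of the criterion. Deptor, an inhibitor of mTOR, fell by 0.58 in OCsEo and by 0.89 in OCsEoS on the log2 scale (edgeR adjusted p = 0.0283 and 0.00116). It measured 12.8 to 17.3 CPM in OCsCtr and 6.88 to 10.7 CPM in OCsEoS, while the 6.90 to 13.1 CPM of OCsEo overlapped with OCsCtr. The call in OCsEo was lost without OCsCtr replicate 1, 2 or 4 or OCsEo replicate 1 or 3, at -0.57 to -0.43. Phlpp1, a phosphatase of AKT, was called lower in OCsEoS only, by 0.60 with an SE of 0.18 (edgeR adjusted p = 0.0201), and its log2 difference between the stimuli was -0.11 (SE 0.18), without a call. The call was lost without OCsCtr replicate 2 (-0.55) or OCsEoS replicate 3 (-0.58), and in OCsEo, at -0.49 with all libraries, Phlpp1 was called without OCsEo replicate 1 (-0.60) or 2 (-0.66). Akt1 (329 to 383 CPM over all libraries), Akt2, Mtor and Pik3r1 were not called, with log2 fold changes between -0.31 and 0.05.

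In the RAS-MAPK arm, 10 of 10 genes were tested and none was called by edgeR. The adjusted p in edgeR was under 0.05 for 4 of them in OCsEo and 3 in OCsEoS, beside 17.4% and 23.0% of all tested genes. Their changes were under the criterion of 0.5. An unadjusted p under 0.05 in edgeR was reached by 4 and 3, beside 29.7% and 34.3% of all tested genes. Of 20 FOXO factors and FOXO targets, 16 were tested, and Ccng2, which encodes the atypical cyclin G2, was called higher in OCsEo. Its log2 fold change there was 0.50 (SE 0.12, edgeR adjusted p = 0.00711), just past the criterion, and 0.22 (SE 0.12) in OCsEoS. The call in OCsEo was lost without OCsCtr replicate 1, 2 or 3 or OCsEo replicate 3 or 4, at 0.43 to 0.49. Foxo1 and Foxo3 were not called, with log2 fold changes of -0.33 and -0.11 in OCsEo and -0.42 and -0.18 in OCsEoS. Foxo1 was lower in all OCsEoS libraries (5.73 to 7.58 CPM) than in all OCsCtr libraries (7.83 to 12.3 CPM), and was called lower there without OCsCtr replicate 1.

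The last list held 9 genes of growth hormone and IL-4 receptor signalling, 2 pathways that can raise Igf1 transcription in liver and in macrophages. Il13ra1, a receptor chain for IL-4 and IL-13, was called lower in OCsEoS by 0.57 on the log2 scale (SE 0.16, edgeR adjusted p = 0.0147). It measured 21.2 to 25.8 CPM in OCsCtr and 10.8 to 18.4 CPM in OCsEoS, and without OCsEoS replicate 4, the lowest, the change was -0.42 and the call was lost. Ghr, the growth hormone receptor, was not called, with log2 fold changes of -0.24 and -0.23 (SE 0.11 each).

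**Figure D5:**
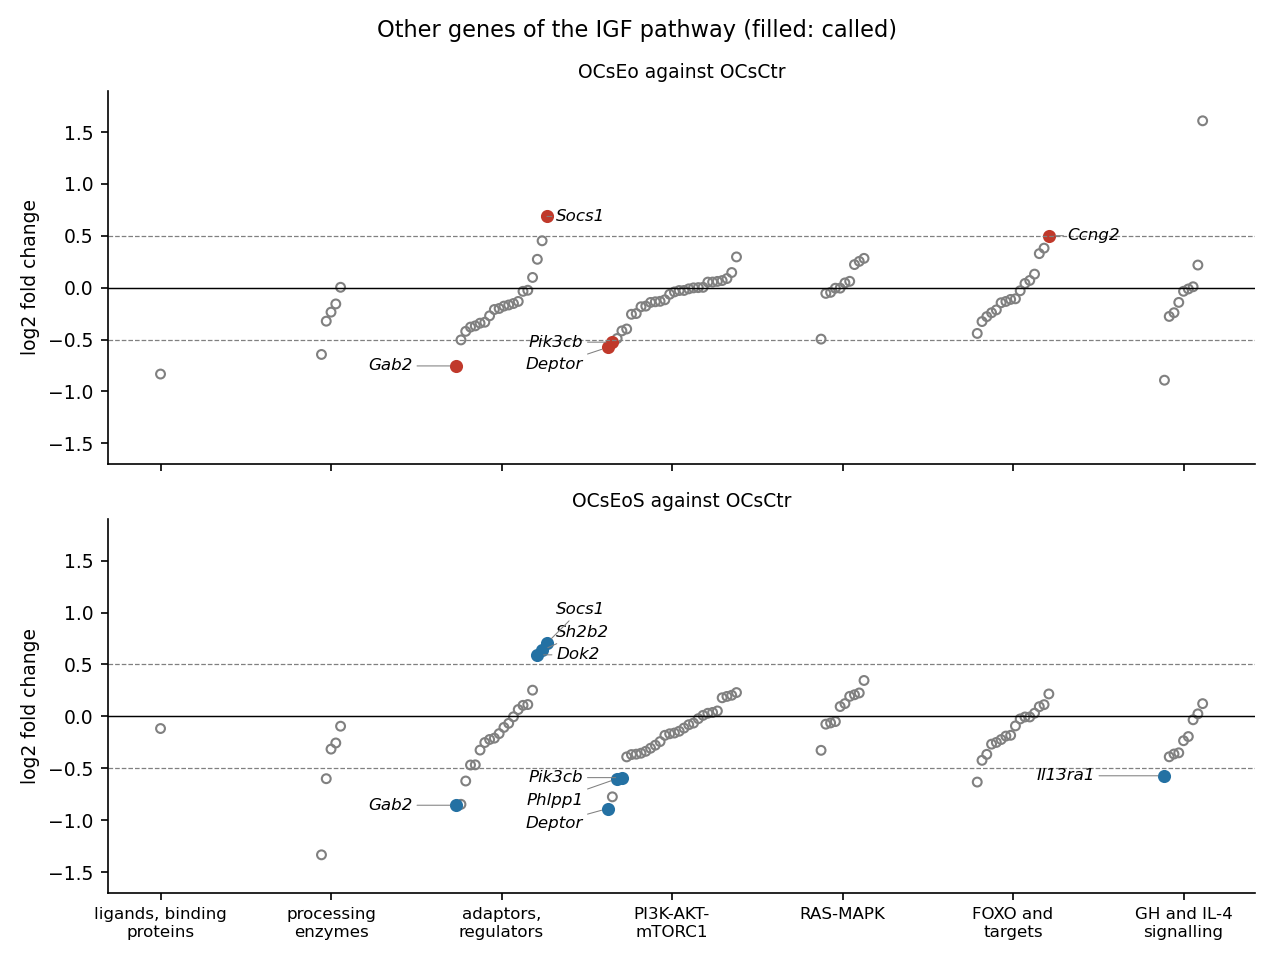
Log2 fold change of the 89 tested genes of the other IGF pathway lists, one point per gene, in OCsEo (upper panel) and OCsEoS (lower panel) against OCsCtr. Filled points are called and named, open points are not, and dashed lines mark 0.5 in either direction. The upper panel holds 2 genes called higher and 3 called lower, the lower panel 3 and 5. The open point at 1.61 in the upper panel is Cish, a low-count gene with an SE of 0.85.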

How the data were processed

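The authors cleaned reads with fastp, aligned them with HISAT2 2.0.5 to GRCm38/mm10 and deposited raw counts per gene from featureCounts. The annotation release and strand setting are not given in the sources used here. Genes were filtered with filterByExpr (minimum count 10, 13681 of 47643 kept) and scaled by TMM, and all 12 libraries were fitted with edgeR 4.0.16 in R 4.3.3. Groups were compared by its quasi-likelihood F-test with Benjamini-Hochberg adjustment over all tested genes. A gene was called where its log2 fold change was beyond 0.5 in either direction and its adjusted p below 0.05. SE is the absolute log2 fold change divided by the square root of F. CPM used TMM-scaled library sizes, RPKM also the deposited gene length, and log2 CPM a prior count of 2. DESeq2 1.42.0 and the other settings given last were alternatives. The methods were tested on simulated data. Coordinates were those of the table, with overlaps from GENCODE M21, and promoters from RefSeq. Members and lists were chosen with earlier results of these data known. Named genes were the members, every list gene called in any comparison, 11 fixed pathway genes and the nearest profiles. The methods call the 4 libraries of a group biological replicates. The legend of the paper's figure that holds the RNA-seq. panels says that symbols represent individual mice, without naming those panels. P-values and SE measure the spread between the libraries of a group.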

Additional observations from a re-analysis of the deposited data

Results flagged for a closer look

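In 77 sets of 4 libraries, 1 per named gene and group, the highest or lowest library was compared with its neighbour, and in 7 sets the gap, as a share of the whole range, was over Dixon's critical value, which chance gives in about 1 set in 20. Of the members, Igf2r in OCsEo replicate 3 was at 99.6 CPM against 144.6 CPM or more in the other 3 libraries, Igfbp4 in OCsCtr replicate 2 at 35.5 CPM against 55.1 CPM or more, and Irs1 in OCsCtr replicate 4 at 0.218 CPM with 0 in the others. Of the other pathway genes, Foxo3 was low in the same OCsEo replicate 3, at 14.4 CPM with the next library at 21.6 CPM. Il13ra1 in OCsEoS replicate 4 was at 10.8 CPM with the next at 17.5 CPM, Foxo1 in OCsEoS replicate 1 at 5.73 CPM with the next at 7.54 CPM, and Igfbp5 in OCsCtr replicate 2 at 0.0593 CPM with 0 in the others. For Irs1 and Igfbp5 only 1 library of the set had counts, so the gap is the whole range by construction and the rate given above does not apply.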

How the results depend on the processing

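Igf1 stayed called in both comparisons with OCsCtr under every alternative run, with log2 fold changes of 1.74 to 1.98 in OCsEo and 1.93 to 2.24 in OCsEoS. Igfbp4 lost its call in OCsEo without OCsCtr replicate 2 and without OCsEo replicate 1, and no other member changed its call. No called value changed sign, while uncalled ones near 0 did, in OCsEo those of Igf2r (-0.12 to 0.04), Irs2 (-0.13 to 0.20) and Igfbp7 (-0.32 to 0.66). Without a threshold on the fold change, 2382, 3151 and 81 genes passed in OCsEo, OCsEoS and between them, and 17 and 24 other pathway genes against OCsCtr. Without a filter on low counts, 100 genes were called between the stimuli and 3 pathway genes in OCsEo (0 higher), and 2 after correction for a trend with gene length. Leaving out 1 library at a time gave 2 to 5 pathway genes in OCsEo (2 without OCsCtr replicate 2, and 3 without OCsCtr replicate 1 or 3 or OCsEo replicate 3 or 4) and 17 to 62 genes between the stimuli, against 52 (17 without OCsEoS replicate 3, 27 and 34 without OCsEo replicates 2 and 3, and 34 without OCsEoS replicate 4). The cause was not tested. Among single genes and settings, 34 calls were lost and 5 gained, the gains being of Phlpp1 in OCsEo and of Grb10 and Foxo1 in OCsEoS. The calls of Socs1, Ccng2 and Deptor in OCsEo were lost in 9, 7 and 6 settings and that of Socs1 in OCsEoS in 5.

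With the replicate number as a block, 854, 1108 and 67 genes were called, and 7, 8 and 0 other pathway genes, Phlpp1 in OCsEo being a gain. Deviations of same-numbered libraries were only weakly correlated (r of -0.0435 to 0.0944 over 12 pairs, none over 0.1). The own number was nevertheless the best match in 9 of 12, so a weak pairing by number remains possible. The main fit was run without the block.

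Depth limits Irs1, Igfbp3, Igfbp5 and Igfbp7, whose counts per library were 0 to 41.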
